A study of Mus musculus with 2 samples.

Results

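The genes described here belong to the programme run by ATF4, a transcription factor that cells make when amino acids run short or when proteins misfold in the endoplasmic reticulum, together with the cytosolic aminoacyl-tRNA synthetases, the enzymes that load each amino acid onto its tRNA. They were chosen by name, as 45 listed genes matched to array probes through the platform's gene symbols or an older synonym. Earlier results of these data were known when the list was made. Of these, 39 had a probe among 16637 named genes on the array, with 47 probes in all. Cebpg, Phgdh, Cth, Mars, Dars and Qars were matched to no probe and have no value below. One member, Ppp1r15a, was found under its older name Myd116.

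The study profiled mRNA of Xbp1 knockout mouse embryonic fibroblasts, collecting 1 culture on day 0 and 1 on day 3 of drug-induced adipogenesis, so both groups carry the deletion. Day 0 was the day of confluence, when induction began, and it lasted 72 h with troglitazone at 5 µM, insulin at 10 µg/ml, DXM at 5 µM and IBMX at 0.25 mM. The labels do not say whether the line is a single clone or from how many embryos it came. The signal of Xbp1 itself was not used to check the knockout, because the labels do not place its probe relative to the deletion. With 1 array per day there was no test, no replicate check and no p-value, and every value below is a description of these 2 arrays.

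Background for the pathway is as follows. When eIF2α is phosphorylated by one of its kinases, among them PERK in the endoplasmic reticulum and GCN2, which senses uncharged tRNA, general translation slows while Atf4 mRNA is translated more. Much of the control of ATF4 is therefore at translation, which an array of mRNA does not measure. With partner factors, ATF4 binds C/EBP-ATF composite elements in genes for amino acid synthesis, amino acid uptake and tRNA charging, and it also induces the factor CHOP (Ddit3) and feedback genes that restrain the response. XBP1 acts in another branch of the same unfolded protein response.

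The composite element gives a concrete view of what some of these genes share in sequence. Members were chosen by name, but known elements may have entered lists of ATF4 genes. The shares below may therefore not be independent of that choice. The search was for TGATGNAAN on either strand (NTTNCATCA when it lies on the opposite strand) in the 250 bases before each RefSeq transcription start of assembly GRCm38.p6, and no other motif was searched. Of 35 members with an entry in that table, 10 held a match (28.6%), against 1052 of 27025 genes (3.89%). The 10 were Atf3, Nupr1, Chac1, Vldlr, Slc7a11, Asns, Pycr1, Aars, Gars and Tars. The stretches around the matches in 8 of these genes are shown, 5′ to 3′ on the gene's own strand, because they include members of each role described below except the synthetases not usually listed as ATF4 targets, where 0 of 3 genes with an entry held a match. Capitals mark the matched bases.

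Asns (chr6:7693210-7693257, minus strand): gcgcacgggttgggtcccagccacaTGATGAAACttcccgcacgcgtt
Slc7a11 (chr3:50443628-50443704, minus strand): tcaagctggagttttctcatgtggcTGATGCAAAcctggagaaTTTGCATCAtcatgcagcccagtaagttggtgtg
Chac1 (chr2:119351023-119351081, plus strand): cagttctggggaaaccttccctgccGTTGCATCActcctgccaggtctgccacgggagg
Nupr1 (chr7:126625548-126625606, minus strand): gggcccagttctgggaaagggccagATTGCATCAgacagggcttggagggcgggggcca
Pycr1 (chr11:120643818-120643876, minus strand): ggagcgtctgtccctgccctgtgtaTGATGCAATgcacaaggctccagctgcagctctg
Aars (chr8:111033704-111033762, plus strand): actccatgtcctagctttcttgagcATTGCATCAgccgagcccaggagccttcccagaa
Gars (chr6:55037945-55038000, plus strand): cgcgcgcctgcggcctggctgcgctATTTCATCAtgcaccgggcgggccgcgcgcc
Tars (chr15:11399659-11399699, minus strand): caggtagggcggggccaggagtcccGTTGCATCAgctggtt

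The match in Asns began 23 bases before the start, and the match in Tars 16 bases before it. Slc7a11, which encodes the light chain of the cystine/glutamate exchanger, held 2 matches on opposite strands, beginning 66 and 48 bases before the start. The match of Chac1 began 194 bases before the start. Such a match is a run of letters, not a measured binding site, and binding was not measured in this series. Members without a match, among them Ddit3 and Trib3, lack only these letters in this window.

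The array scale was set before the members were read. Raw intensities of gene probes had medians of 78 (day 0) and 166 (day 3), so the 29922 gene probes were quantile normalized, and a gene counted as detected where its normalized signal exceeded 122, the median of gene probes, on at least 1 day. All 10 fibroblast markers checked were above that threshold on both days, with a summed signal of 271999.5 on day 0 and 236550 on day 3. That sum includes saturated spots of Dcn on both days and of Vim on day 0, and its members differed in direction, with S100a4 at -1.56, Col1a1 at -1.06 and Lum at 1.60. Of 8 adipocyte markers, 3 were above it on both days (Lpl, Pparg and Cebpa) and Adipoq, Fabp4, Plin1, Cidec and Cfd were under it on both; the summed signal was 9367 and 60151, most of it from Lpl, whose raw day 3 spot was saturated. Markers of other cells gave summed signals of 16590 and 40052 for 6 leukocyte genes, 560.5 and 762.5 for 5 endothelial genes and 313.5 and 202 for 4 epithelial genes. The leukocyte sum came mostly from Cd14 (16036 and 39698.5), while the defining leukocyte gene Ptprc and the epithelial gene Epcam stood at the floor of 10 on both days. Also above the threshold on both days were Cd68 (198.5 and 268), Pecam1 (189.5 and 568.5) and Tie1 (125.5 and 125). Csf1r, Kdr and Krt18 were above it on day 0 only, and the remaining genes of these lists on neither day. The part of these markers in the results below was not tested, and in a bulk sample fewer cells of a type and less RNA per cell cannot be told apart.

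Of the 39 members on the array, 37 were detected, and those 37 were above the threshold on both days. Most had a lower normalized signal on day 3. The log2 difference, day 3 minus day 0, was below 0 in 33 of 37 members, against 48.4% of all 10656 detected genes. At least 2-fold lower were 10 members (27.0%), against 10.3% of detected genes, and 1 member was at least 2-fold higher, against 12.8%. The 5328 brighter detected genes included 30 of the 37, of which 7 were at least 2-fold lower, against 7.47% of the brighter genes. The median difference of the members was -0.52, and that of all detected genes was 0.03. At a 1.5-fold limit, 18 members were lower, against 21.0% of detected genes (2240 of 10656), and 2 were higher, against 24.1%.

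These directions are relative to the other genes on the arrays. Raw intensities were higher on day 3 for most genes (median of all detected genes 0.67). In raw intensities, 19 of the 37 members were below 0, against 19.2% of detected genes, and 18 were above it. Of the 37, 34 were below the median of all genes. As read on that scale, 2 members were at least 2-fold lower and 2 higher, against 2.85% and 35.7% of detected genes, and the members' median was -0.06. Under median scaling over all gene probes, 35 of 37 were below 0 as read, against 71.0% of detected genes. All genes had a median of -0.49 there, and 34 members were below that median. As read there, 23 were at least 2-fold lower, against 24.3% of detected genes, 0 were higher, against 7.78%, and the members' median was -1.15.

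A technical yardstick came from control features printed several times on each array. The SD of a difference between days, pooled over those features, was 0.61, 0.78, 0.57 and 0.86 for log2 signals of 6 to 8, 8 to 10, 10 to 12 and 12 to 16. This yardstick holds only the scatter of spots on an array, not that of cultures, extractions or hybridizations. Differences of 14 members exceeded the pooled SD for their signal, 12 toward day 0 and 2 toward day 3, and those of the other 23 did not. Taken from the median feature instead, which gives the noisier features less weight, that SD was 0.42, 0.44, 0.39 and 0.37, and 25 members exceeded it, 23 of them toward day 0. The share of all detected genes beyond either SD was not computed, so these counts have no background to be read against. Below, "within the spot error" means within the pooled SD, the wider of the pair.

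**Figure D1:**
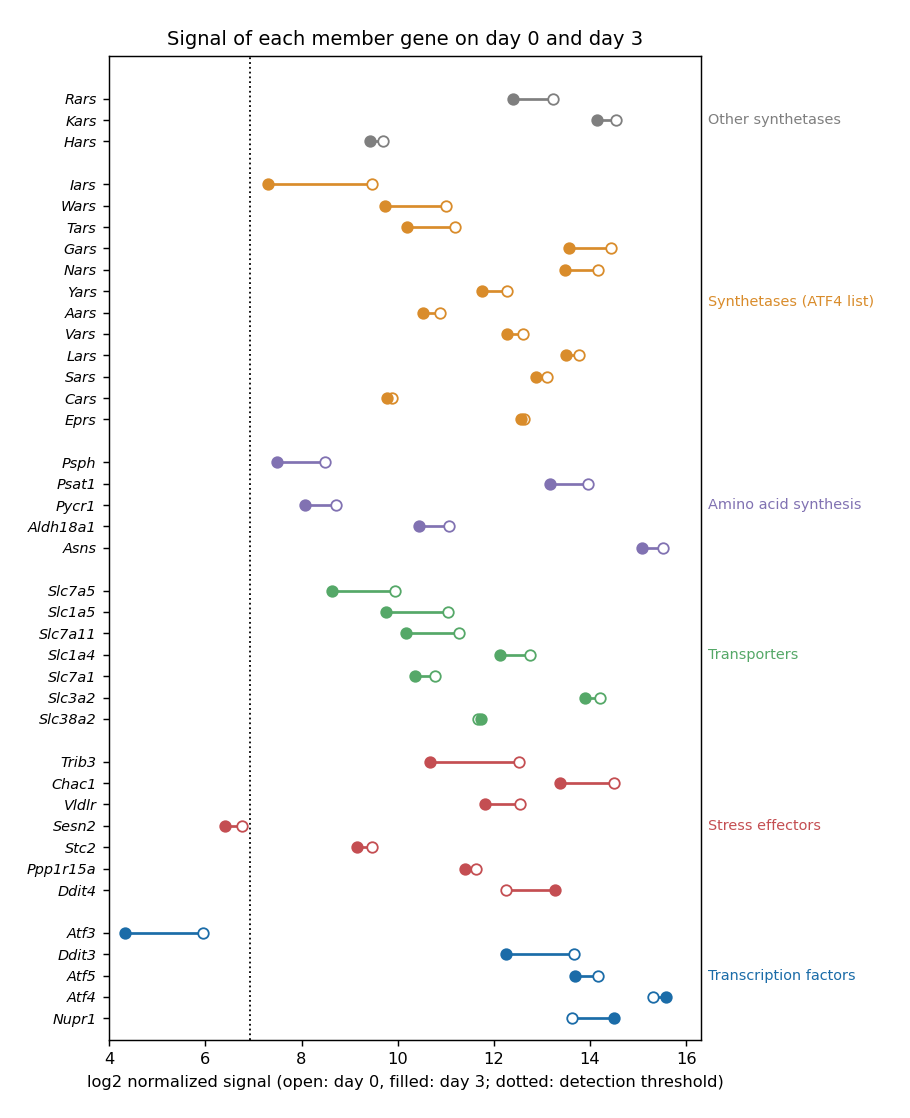
Normalized log2 signal of the 39 members with a probe on day 0 (open circles) and day 3 (filled circles), 1 array each, grouped by role; the dotted line is the detection threshold of 6.93. On this quantile-normalized scale the filled circle lies left of the open one in most rows; Ddit4, Nupr1, Atf4 and Slc38a2 are the detected members in which it lies to the right, and distances between genes carry no meaning because probes differ.

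The transcription factors of the pathway did not share a direction. Atf4 itself had a signal of 40450 on day 0 and 49238.5 on day 3, a difference of 0.28 that lay within the spot error. Ddit3, which encodes CHOP, a factor induced by ATF4 that promotes cell death under lasting stress, went from 13007.5 to 4885.5 (-1.41, 2.66-fold lower). Atf5, a factor regulated at translation much as ATF4 is, read 18311.5 and 13153 (-0.48, within the spot error). Nupr1, which encodes a small stress-induced chromatin protein, was the other way round, at 12677 and 23020.5 (1.82-fold higher), and its difference of 0.861 was just beyond the pooled SD of 0.855. Atf3, an immediate stress factor, stayed under the threshold (61.5 and 20), and no fold is given for it. In this role group 1 of 4 detected members was at least 2-fold lower and 0 were higher, against 10.3% and 12.8% of all detected genes, and the median was -0.10.

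Among the stress effectors and feedback genes, Trib3, a pseudokinase that binds ATF4 and restrains it, was lowest relative to day 0. Its signal was 5867 on day 0 and 1639.5 on day 3 (-1.84, 3.58-fold lower), and its raw intensities of 5004 and 1921 had the same order. Chac1, which encodes an enzyme that degrades glutathione, read 23020.5 and 10579 (-1.12, 2.18-fold lower). Ddit4, which encodes REDD1, an inhibitor of the growth kinase mTORC1, was the only detected member at least 2-fold higher on day 3, at 4882 and 9942 (1.03, 2.04-fold higher). Relative to all genes, its difference was 0.84 under median scaling and 0.77 with no normalization, short of 2-fold. Ddit4 and Trib3 therefore stood on opposite sides of 0, each beyond the spot error.

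The other stress genes differed less. Ppp1r15a, which encodes GADD34, the phosphatase subunit that reverses eIF2α phosphorylation, read 3167.5 and 2717.5 (-0.22). Vldlr, a lipoprotein receptor gene, read 5995.5 and 3608.5 (-0.73), and Stc2, a secreted glycoprotein gene, read 706 and 569 (-0.31), with -0.43 by its other probe. These 3 lay within the spot error. Sesn2, an amino acid sensor gene, stayed under the threshold too (108 and 85.5). Over the role group, 2 of 6 detected members were at least 2-fold lower and 1 was higher, against 10.3% and 12.8% of all detected genes, with a median of -0.52.

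Of the 7 amino acid transporters, 3 were at least 2-fold lower, against 10.3% of all detected genes. Slc7a5, the light chain of the large neutral amino acid transporter LAT1, read 991 on day 0 and 398 on day 3 (-1.32). Slc1a5, the glutamine carrier ASCT2, read 2107.5 and 864 (-1.29, 2.44-fold lower). The brightest probe of Slc7a11, whose product imports the cystine needed for glutathione, read 2490 and 1157 (-1.11). Its other probes gave 677.5 and 175.5 (-1.95), and 191.2 against a day 3 signal below the threshold (at least 1.57-fold lower). The 3 probes thus gave 1 direction and differed in size.

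The heavy chain that pairs with both SLC7A5 and SLC7A11, encoded by Slc3a2, was at 18968 and 15264.5 (-0.31, within the spot error). Slc1a4, a carrier of alanine, serine and cysteine, read 6853.5 and 4484.5 (-0.61), and Slc38a2, the carrier SNAT2, read 3270.2 and 3397.5 (0.06), both within the spot error. Slc7a1, the cationic amino acid carrier, had probes at odds: 1757 and 1305 (-0.43) by the brighter one, and 391 and 923 (1.24) by the other, which was beyond the spot error toward day 3. Its direction is therefore not settled on these arrays. The 7 transporters had a median of -0.61, with 6 below 0 in normalized signals and 4 in raw ones, against 48.4% and 19.2% of all detected genes.

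The 5 detected genes of amino acid synthesis were all below 0 in normalized signals, against 48.4% of all detected genes. In raw signals 3 of 5 were, against 19.2%. Their normalized differences lay between -1.002 and -0.43, with a median of -0.65. Psph, which makes serine in the last step of its synthesis, read 358.5 and 179 and was the only one at least 2-fold lower (2.003-fold), a call that was lost under median scaling (-0.76 relative to all genes), with no normalization (-0.83) and with the added offset. Psat1, the aminotransferase one step earlier, read 15873 and 9153.5 (-0.79, within the spot error). Aldh18a1 and Pycr1, which act in proline synthesis, read 2130.5 and 1387 (-0.62, beyond the spot error) and 423.5 and 270 (-0.65, within it). Asns, which makes asparagine and whose element is a textbook ATF4 site, was at 46802 and 34840 (-0.43, within the spot error).

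**Figure D2:**
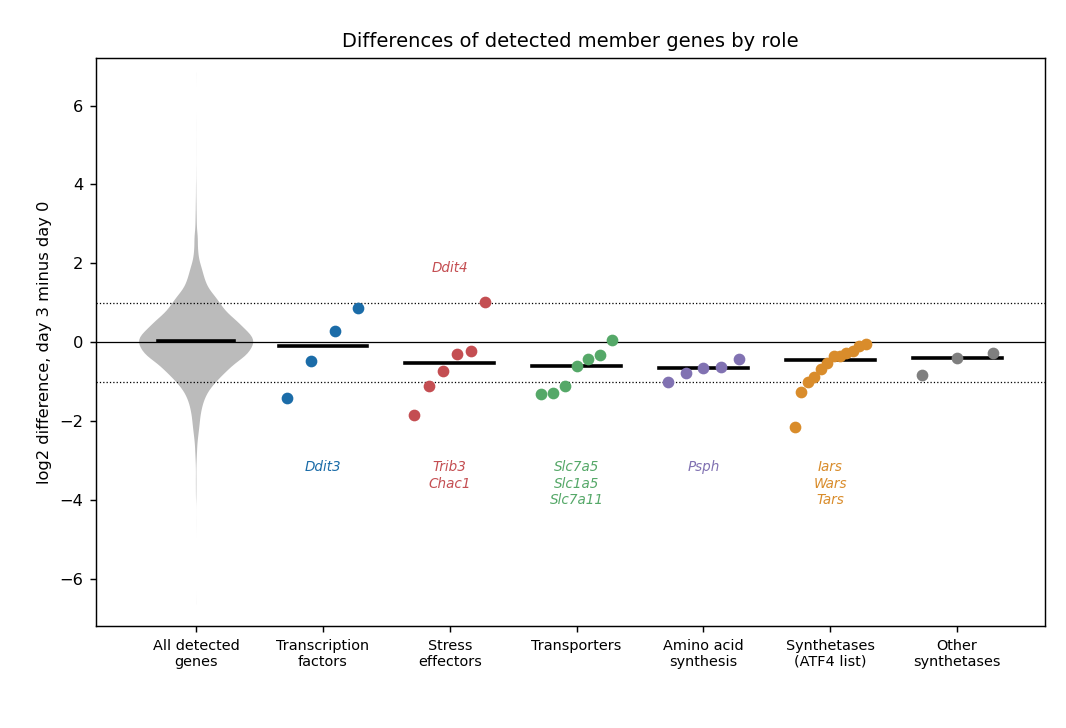
Log2 difference in normalized signal, day 3 minus day 0, for the 37 detected members (points) by role, beside the distribution over all 10656 detected genes (grey); thick bars are medians, dotted lines mark 2-fold, and members past 2-fold are named beneath or above their group. The median bar of every role group lies below 0 in these quantile-normalized signals, from -0.65 to -0.10, and that of all detected genes is at 0.03.

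The tRNA synthetases had lower normalized signals on day 3. Of 18, 15 had a probe, and all 15 were detected and below 0, against 48.4% of all detected genes. Their differences ran from -2.16 to -0.06, with a median of -0.39. At least 2-fold lower were 3 of the 15, against 10.3% of all detected genes. In raw intensities 7 of the 15 were below 0 as read, against 19.2% of all detected genes, and all 15 were below the median of all genes. The direction of Sars also turned when all its probes are averaged (0.20), since its other probe, which is under the threshold, is then counted. Wars, for tryptophan, read 2049 and 849 (-1.27, 2.41-fold lower). Tars, for threonine, read 2349.5 and 1168.5 (-1.01) by its brighter probe and 746 and 372.5 (-1.002) by the other, so its probes gave nearly the same size. Iars, for isoleucine, had the lowest value of any member, 704.5 and 157.5 (-2.16, 4.47-fold lower), but its other probes gave 357 and 270 (-0.40, within the spot error) and 243 against a signal below the threshold (at least 1.99-fold lower).

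Gars, for glycine, read 22228 and 12034 (-0.89, beyond the spot error) and Rars, for arginine, 9630 and 5406.2 (-0.83, within it). Nars (-0.69) and Yars (-0.52), for asparagine and tyrosine, Aars (-0.36), for alanine, with 1884 and 1470.5, and Vars (-0.34), for valine, were within the spot error. The smallest differences were those of Eprs, whose product charges glutamate and proline tRNAs, at 6333 and 6096 (-0.06), and of Cars, for cysteine, at 944.5 and 880 (-0.10). Sars (-0.23), Lars (-0.26), Hars (-0.26) and Kars (-0.39), for serine, leucine, histidine and lysine, were also within the spot error.

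Synthetases that are often listed as ATF4 targets and the remaining ones had overlapping values. Of the first group, 12 had a value, their median was -0.44 and 3 were at least 2-fold lower. The remaining group had values for Hars, Kars and Rars, with a median of -0.39 and 0 at least 2-fold lower. The difference between the groups was not tested, and 3 genes are too few for a range. At least 2-fold lower were 3 of the 15 synthetases and 7 of the 22 other detected members, against 10.3% of all detected genes. The contrast between synthetases and other members was likewise not tested.

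**Figure D3:**
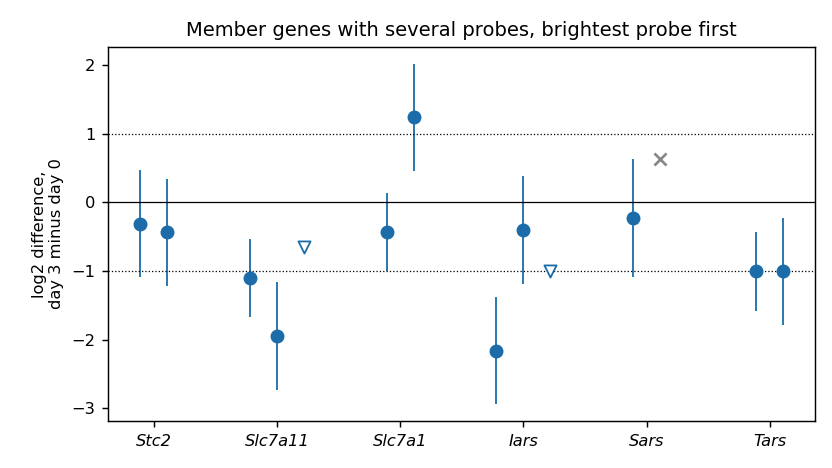
Log2 difference, day 3 minus day 0, for each probe of the 6 member genes with several probes, brightest first; filled circles are probes above the threshold on both days with bars for the pooled repeat-spot SD, open triangles are bounds for probes above it on day 0 only, and the cross is a probe below it on both days. The probes of Stc2 and Tars nearly coincide, those of Slc7a11 and Iars point the same way with different sizes, and those of Slc7a1 lie on opposite sides of 0.

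Near the 2-fold limit, Psph (2.003-fold), Tars (2.01-fold) and Ddit4 (2.04-fold) lay just inside it. Gars (1.85-fold) and Rars (1.78-fold), both lower, and Nupr1 (1.82-fold), higher, lay just outside. The counts at 2-fold therefore turn on small differences for these genes.

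Members with the composite element before their start and members without it had overlapping values. The 9 detected members with a match ranged from -1.12 (Chac1) to 0.86 (Nupr1), with a median of -0.73, and 3 of them were at least 2-fold lower, namely Chac1, Slc7a11 and Tars. The 19 detected members with an entry and no match ranged from -2.16 (Iars) to 1.03 (Ddit4), with a median of -0.43, and 4 were at least 2-fold lower. The detected members Slc7a5, Slc1a5, Wars, Rars, Nars, Vars, Hars, Lars and Cars had no entry and are in neither group. Of these, Slc7a5 (-1.32), Slc1a5 (-1.29) and Wars (-1.27) were at least 2-fold lower. Of all detected genes, 10.3% were at least 2-fold lower. Asns and Aars, both with a match in the stretches shown above, were among the smaller differences (-0.43 and -0.36). No test was made of this comparison.

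Other known genes of the pathway were read from a separate list, which like the members was chosen with earlier results of these data known. Of 21, 19 were detected, and 14 of them were below 0, against 48.4% of all detected genes. At least 2-fold lower were 5, against 10.3%, and 0 were at least 2-fold higher, against 12.8%. The median of the 19 was -0.52. In raw intensities, where 20 were detected, 9 were below 0 as read, against 19.2% of all detected genes, and 15 were below the median of all genes. Shmt2, the mitochondrial enzyme that takes a one-carbon unit from serine, read 442.5 and 158.5 (-1.48). Xpot, which exports tRNA from the nucleus, read 2775.5 and 1077.5 (-1.37), with -0.99 by its other probe. Ndrg1, a stress-responsive gene, read 10407.5 and 3172.8 (-1.71), with -1.04 by its other probe. Ero1l, now named Ero1a, which forms disulfide bonds in the endoplasmic reticulum, read 6856 and 1524.5 (-2.17) by its brightest probe and -0.29 by another.

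The remaining parts of the cytosolic charging machinery were also below 0 in normalized signals, 5 of 5 against 48.4% of all detected genes. In raw signals 4 of 5 were, against 19.2%. At least 2-fold lower in normalized signals were 2 of the 5, against 10.3% of all detected genes. Farsa and Farsb, the subunits of phenylalanine tRNA synthetase, read 4053.5 and 2940.5 (-0.46) and 11765.5 and 6904.5 (-0.77), both within the spot error. The scaffold genes of the multi-synthetase complex were uneven: Eef1e1 read 12590 and 4386.5 (-1.52), Aimp2 read 7689.5 and 2779 (-1.47), and Aimp1 read 3931.8 and 3771.5 (-0.06). Eef1e1 and Aimp2 were beyond the spot error, and Aimp1 was not.

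**Figure D4:**
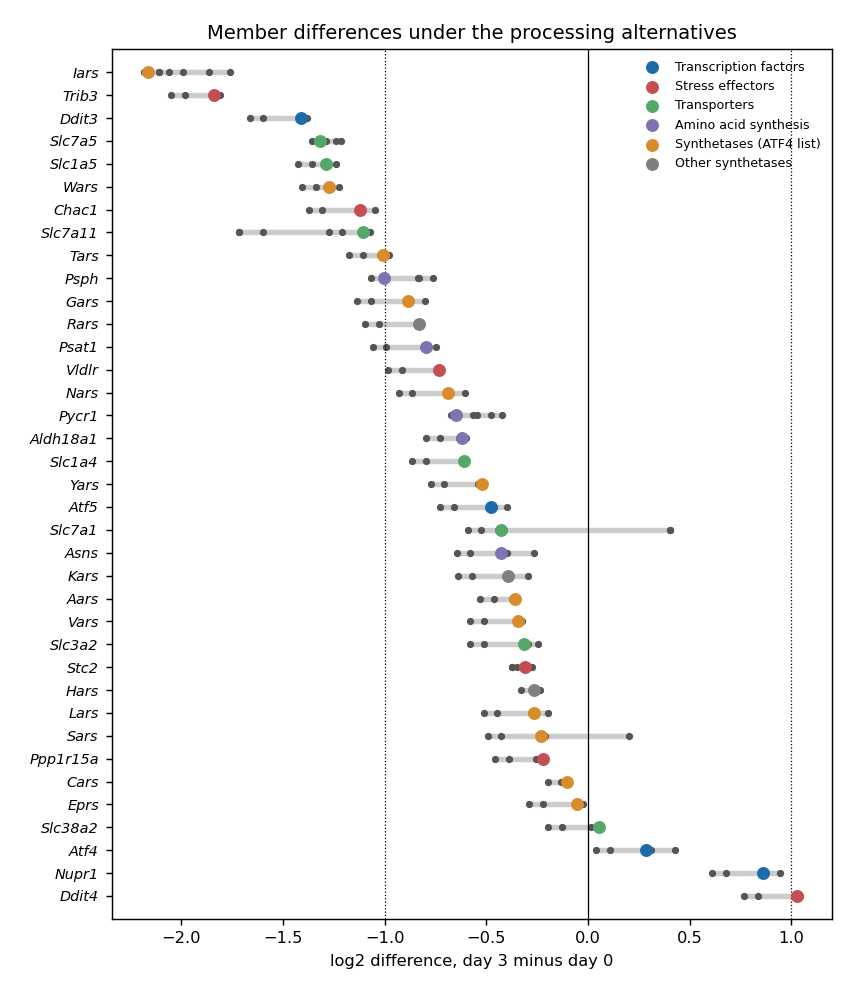
Log2 difference, day 3 minus day 0, of the 37 detected members under the reported setting (large points, coloured by role) and 11 processing alternatives (small points), with the range as a grey bar; where a scaling shifted the median of all genes by over 0.1, that shift was removed. The 3 other detection filters and setting low signals to the threshold could not move these members. Dotted lines mark 2-fold. The 8 members that stay past 2-fold in each setting are Iars, Trib3, Ddit3, Slc7a5, Slc1a5, Wars, Chac1 and Slc7a11, and only Slc7a1, Sars and Slc38a2 have points on both sides of 0.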

How the data were processed

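RNA from each day was hybridized to 1 single-colour array after Phalanx amplified 1 µg and labelled it with Cy5, per the labels' protocols. The deposited per-sample tables give 1 linear intensity for each of 39200 spots. Background appeared subtracted, since the 95th percentile of 7402 empty spots was 7 on day 0 and 9 on day 3. No source used here names the scanner or the background method. The authors' series table, also intensity values, covers 11482 of 29922 gene probes by an unstated rule. Its column medians, 1414.5 on day 0 and 1414.3 on day 3, fit a linear scale normalized between arrays, while the exact method stays unknown.

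Gene probes were quantile normalized with limma 3.58.1 in R 4.3.3, set to a floor of 10 and log2 transformed. Signals of 65000 or more counted as saturated. Platform symbols (21020 probes with 1 symbol, 8902 unnamed) were updated through a GRCm38.p6 gene table: 17558 were current, 3410 were synonyms and 52 were kept. Vars2 is both a current gene and an old name of Vars, and its probes were taken as Vars2. A gene with several probes was read by its brightest one (mean log2 signal over both days). Folds where 1 day was below the threshold are lower bounds computed against 122. No probe sequences or positions were analysed here. Promoter sequences are from RefSeq. The code was tested on simulated data.

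The members and lists were chosen with earlier results of these data known. All members were given values; from each other list, up to 4 detected genes with the largest differences were named, or all members of a list of 5. The 11 alternatives were scaling by the median of all gene probes, cyclic loess (3 iterations), raw values without normalization, an offset of 50, 3 other detection filters, signals under the threshold set to it, 2 ways of averaging probes, and the authors' table. The number of arrays limits the precision.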

Additional observations from a re-analysis of the deposited data

How the results depend on the processing

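Across the reported setting and 11 alternatives, the shift of all genes was removed where a scaling moved it by over 0.1 (-0.49 under median scaling, 0.67 with no normalization). The number of members at least 2-fold lower, relative to all genes in those 2 settings, ranged from 8 to 12. The share of all detected genes at least 2-fold lower ranged from 8.34% (offset of 50) to 11.9% (cyclic loess). The members' median difference ranged from -0.73 to -0.45. As read, without removing that shift, 23 members were past 2-fold lower under median scaling, against 24.3% of detected genes. With no normalization 2 were, against 2.85%. With the shift removed, members at least 2-fold higher numbered 0 under median scaling and 0 with no normalization, where Ddit4 gave 0.84 and 0.77, and 1 in the other settings. Of 37 detected members, 34 kept their sign in every setting that gave a value, and 8 of the 11 past 2-fold stayed past it. The others were Psph, which fell short of 2-fold under both scalings and with the offset and has no value in the authors' table, Tars (-0.98 with the offset) and Ddit4. Slc38a2 was at -0.13 and -0.20 under the scalings, and averaging probes turned Slc7a1 to 0.41 and Sars to 0.20. In the authors' table Slc7a11 was read by its second probe (639.8 and 211.4, -1.60), since its brightest has no value there. The counts without a detection filter, and with detection above empty spots, include Atf3 although both its signals are under the threshold. The cause of the other differences between settings was not tested. No paired analysis was possible because each day had 1 sample, and none could be left out. Signal close to the threshold limits Psph, Pycr1, every probe of Iars and the dimmer probes of Slc7a11. The brightest Iars probe, which gave the lowest value of any member, read only 157.5 on day 3.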

Other observations

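The mitochondrial tRNA synthetases, a list set beside the cytosolic enzymes, had values on both sides of 0. Of 17, 14 were detected, and 10 of these were below 0 in normalized signals, against 48.4% of all detected genes. On day 3, 4 were at least 2-fold lower and 1 was higher, against 10.3% and 12.8% of all detected genes. The median of the 14 was -0.42. In raw intensities 6 of these 14 were below 0 as read, against 19.2% of all detected genes, and 11 were below the median of all genes. Mars2, for methionine, read 401 and 125.5 (-1.68), and its other probe was at least 2.13-fold lower. Yars2, for tyrosine, read 448 and 180.5 (-1.31). Wars2, for tryptophan, read 682 and 295 (-1.21), while its other probe gave 128.5 and 138 (0.10). Lars2, for leucine, was higher, at 640 and 1392 (1.12).

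The genes upstream of ATF4, encoding the eIF2α kinases, the subunits of eIF2 and of its exchange factor eIF2B, and a phosphatase subunit, also lay on both sides of 0. All 13 were detected, with 7 below 0 and a median of -0.18, and 1 was at least 2-fold lower, against 48.4% and 10.3% of all detected genes. In raw intensities 2 of the 13 were below 0 as read, against 19.2% of all detected genes, and 9 were below the median of all genes. Subunits of eIF2B differed in direction: Eif2b1 read 4608 and 2181 (-1.08) and Eif2b3 read 2750.8 and 1705.5 (-0.69), while Eif2b2 read 1601 and 3134.5 (0.97), each beyond the pooled repeat-spot SD of 0.57. Eif2b4 (-0.62) and Eif2b5 (-0.30), added after the values were seen, were also below 0, within the pooled SD for their signal. Eif2b2 was thus the only eIF2B subunit above 0. Ppp1r15b, the subunit of the constitutive eIF2α phosphatase, read 2225.2 and 3851.5 (0.79), and -0.01 by its other probe. The 4 kinase genes lay between -0.51 (Eif2ak2) and 0.55 (Eif2ak3), and their range was added after the values were seen.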
